A study of Homo sapiens with 12 samples.

Results

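Core spliceosome genes were followed by RNA sequencing in 2 human cell lines, in RNA from whole cells and from the cytoplasm. The 52 genes were taken by name from the subunits of the spliceosomal small nuclear ribonucleoproteins (snRNPs) and the proteins that join them. They were not taken by any measured value, although earlier results of these data were known when they were chosen. Their 439 annotated transcripts were summed per gene out of 61860 genes in the table. All 52 passed the filter on low counts (a mean count above 2) in every comparison of gene counts, and the smaller numbers that could be read per length or by transcript class are given where they are used.

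The spliceosome removes introns from pre-mRNA. U1 snRNP first pairs with the 5′ splice site, U2AF binds the 3′ splice site, and U2 snRNP with its SF3A and SF3B parts binds the branch point. The U4/U6.U5 tri-snRNP then joins, helicases remodel the RNA, and the Prp19 complex and its partners hold the active site while the exons are joined. A minor spliceosome with U11 and U12 snRNPs does the same for a rare class of introns.

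Both lines derive from Flp-In T-REx 293, a human embryonic kidney (HEK293) line with a single recombination site for a transgene. In both, doxycycline (1 µg/ml for 6 days) switched on 2 elements together, namely chained miRNAs against endogenous PGC-1α, a transcriptional co-activator, and a FLAG-tagged PGC-1α that the miRNAs do not recognise. That protein was full length in WT-res cells and lacked the RS domain in ΔRS-res cells. Each line contributed 3 whole-cell libraries, each from 1 well, and 3 cytoplasmic libraries, each from 6 pooled wells, and the study asked which transcripts need the RS domain to reach the cytoplasm. Each line is a single selected clone, no library used here comes from uninduced cells or from cells without the miRNAs, and the replicates were consecutive passages of that clone, so p-values measure the spread between passages and the effect of the transgene cannot be told apart from other differences between the clones.

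The libraries held between 90333190 and 144628005 counts. Of 8 HEK293 marker genes, 6 were above 1 TPM in every library (transcripts-per-million, computed here from the counts and the full transcript lengths), with VIM the most abundant, while NES and NEFM were below 1 in every library. None of 8 mature kidney markers reached 1 in any library (their summed level was 0.375 to 0.918, mostly AQP1). Of 7 blood, liver and fibroblast markers, HBA1 (6.41 to 16.8) and COL1A1 (1.31 to 2.77) were above 1 in every library and the other 5 were below 1, including PTPRC, HBB and ALB. The nuclear RNA NEAT1 was at 40.3 to 59.6 in whole-cell libraries on the same scale and at 15.6 to 33.3 in cytoplasmic ones, with every cytoplasmic value below every whole-cell value. MALAT1, another nuclear RNA, was at 281 to 638 in whole cells and 206 to 378 in the cytoplasm, and its fractions overlapped in both lines. The highest cytoplasmic values of both RNAs, 33.3 and 378, were those of WT-res cytoplasmic replicate 1. The third nuclear RNA read, KCNQ1OT1, was below 1 in every library, at 0.329 to 0.438 in whole cells and 0.0966 to 0.138 in the cytoplasm. Nuclear RNA was thus present in the cytoplasmic fraction, and its part in the differences between fractions was not tested.

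One library goes against its label. The gene DDX19B, which differs between the lines, was at 8.42 and 8.68 in WT-res whole-cell replicates 1 and 2 and at 10.2 to 11.4 in the WT-res cytoplasm, but at 0.18 in the library labelled as replicate 3 of WT-res whole cells, inside the range of the ΔRS-res libraries (0.147 to 0.267). SDHA was at 220 in that library, close below the ΔRS-res libraries (224 to 268) and far above the other WT-res libraries (48.2 and 46.7 in whole cells, 48.5 to 50.3 in the cytoplasm). PPARGC1A, the gene of PGC-1α, was at 271 there, inside the ΔRS-res range (171 to 288) and below the other WT-res libraries (292 to 356). These are levels in TPM, and DDX19B and SDHA were chosen after their values were seen. The library was kept under its label, and the counts of calls and many of the values that use it are also given without it.

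The members together made up 0.853%, 0.838% and 0.708% of all counts in the WT-res whole-cell libraries (replicates 1 to 3) and 0.858%, 0.857% and 0.772% in the ΔRS-res ones. In the cytoplasm the shares were 0.874%, 0.984% and 0.874% in WT-res and 0.95%, 0.938% and 0.871% in ΔRS-res. The lines overlapped within each fraction, and within each line every cytoplasmic share was above every whole-cell share. In bulk RNA, fewer cells and less RNA per cell cannot be told apart.

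Levels differed widely between members. Per transcript length, the highest mean over the 12 libraries belonged to SNRPB, which encodes SmB/B′ of the Sm ring (366 to 544 TPM), followed by SNRPD2, the ring subunit SmD2 (337 to 457), and PRPF8, the U5 scaffold around the active site (259 to 375). The lowest means over the 12 libraries were those of CWC25, a factor of the first catalytic step (10.0 to 14.4), SNRNP35, a U11/U12 protein (10.8 to 15.1), and PRPF39, a U1-associated protein (9.83 to 21.4). This order does not hold in every group. In ΔRS-res whole cells CWC22 was lowest, at 7.28, 8.72 and 7.16 TPM, within a range of 7.16 to 41.4 over all libraries. Neighbours in the order of means had overlapping ranges in all 10 pairs compared at both ends, and the highest mean was 37.5 times the lowest, with a median of 94.0 over the 51 members whose transcript lengths were known. The main transcript of SNRNP25, which carries 90.7% of its counts, is not in the annotation used here, so no per-length level is given for that gene.

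The first comparison asked whether the abundance of these transcripts in whole cells differed between the lines. CWC22, which brings the exon junction helicase eIF4A3 to the spliceosome, was the member with the largest difference. Its counts-per-million values (CPM, scaled by TMM over the 12 libraries) were 30.05, 51.61 and 36.06 in WT-res and 16.31, 18.03 and 15.53 in ΔRS-res whole-cell libraries. Every ΔRS-res value lay below every WT-res value, and the WT-res values were widely spread. The log2 fold change of ΔRS-res over WT-res was -1.25 ± 0.194 (SE), with an adjusted p of 0.213 from edgeR (quasi-likelihood test, p adjusted after Benjamini and Hochberg over all genes tested), which did not pass 0.05.

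None of the 52 members was called higher or lower in whole cells by edgeR's quasi-likelihood test, where 0% of the 26793 genes tested were called higher and 0% lower. At an unadjusted p under 0.05 there were 8 members, where 12.5% of all genes passed, and DESeq2 called 2 lower, namely CWC22 and PRPF39, where it called 2.97% of all genes lower. The members' median log2 fold change was 0.01, beside 0.00 for all genes and 0.03 for protein-coding genes, and was -0.06 beside -0.01 for all genes without the library that goes against its label. With the replicate number as a block, 5 members were called, where 2.78% of all genes were called higher and 5.19% lower. They were SNRNP70, the U1 protein U1-70K, at 0.28 (adjusted p = 0.0416 in edgeR's blocked fit) and, with lower values, CWC22 at -1.22 (0.0226), PRPF39 at -0.71 (0.0243), the U2 protein gene SNRPA1 at -0.25 (0.0431) and CDC5L of the Prp19 complex at -0.25 (0.0339).

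SF3B1, the large branch-point subunit of U2 snRNP, had 559.3, 613 and 391.9 CPM in WT-res and 375.9, 395.6 and 356.4 CPM in ΔRS-res whole-cell libraries. The lowest WT-res value, from the library that goes against its label, fell inside the ΔRS-res range, so the groups overlapped. The log2 fold change was -0.49 ± 0.162 (SE), with adjusted p = 0.282 by edgeR and 0.0507 with the replicate block. Without that library it was -0.66 with adjusted p = 0.00923, and CWC22 then stood at -1.32 with adjusted p = 0.0242; these were the only 2 members called by edgeR without it, where 2.06% of all genes were called.

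PRPF39, a U1-associated factor, had 29.87, 38.05 and 48.09 CPM in WT-res and 20.33, 25.78 and 24.64 CPM in ΔRS-res whole-cell libraries. CWC27, a cyclophilin-type partner of CWC22, had 23.04, 34.8 and 46.33 CPM against 20.22, 22.59 and 21.72 CPM. In neither gene did the groups overlap, and in both the library labelled WT-res replicate 3 was the highest of all whole-cell libraries, on the side away from ΔRS-res. Their log2 fold changes were -0.72 (adjusted p = 0.213) and -0.70 (adjusted p = 0.258) by edgeR. Without the library that goes against its label they were -0.55 (adjusted p = 0.101) and -0.45 (adjusted p = 0.192) by edgeR, and the groups still did not overlap. Without WT-res whole-cell replicate 1, edgeR called CWC27 at -0.94, PRPF39 at -0.89 and CWC22 at -1.42, with adjusted p of 0.0285, 0.0367 and 0.0179, where 2.24% of all genes were called, so the calls on these 3 genes change with the WT-res library left out as well as with the test used.

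By complex, the log2 fold changes in whole cells ran as follows, and no member passed in edgeR's test without the block. The 4 U1 genes ran from -0.72 (PRPF39) to 0.27 (SNRNP70), the 13 U2 and U2AF genes from -0.49 (SF3B1) to 0.18, and the 8 Prp19 and catalytic genes from -1.25 (CWC22) to 0.08. The 7 Sm ring genes ran from -0.23 (SNRPE) to 0.05 (SNRPB) in log2 fold change. The 5 U5 genes ran from -0.04 (SNRNP40) to 0.20 (PRPF6), with 4 of 5 above 0, and the 6 helicases from -0.09 (DHX15, which takes apart spent spliceosomes) to 0.21 (DHX16, which acts before the first step). The 6 U4/U6 and tri-snRNP genes ran from -0.17 (PRPF38A) to 0.08 (PRPF4) and the 3 U11/U12 genes from -0.08 (SNRNP48) to 0.15 (SNRNP25). With the library that goes against its label left out, the U1 genes ran from -0.55 to 0.18, the U2 and U2AF genes from -0.66 to 0.14, the Prp19 and catalytic genes from -1.32 to 0.11, the Sm ring from -0.27 to -0.01, the U5 genes from -0.10 to 0.12, the helicases from -0.18 to 0.11, the U4/U6 and tri-snRNP genes from -0.27 to -0.04 and the U11/U12 genes from -0.07 to 0.02. Over the 52 members, all ΔRS-res libraries were above all WT-res libraries in 3, below in 9 and overlapping in 40. Of 26686 genes, 9.5% had all ΔRS-res libraries above and 9.49% below. Without the library that goes against its label, 5 members lay above, 17 below and 30 overlapped, beside 23.2% of all genes above and 19.3% below.

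**Figure D1:**
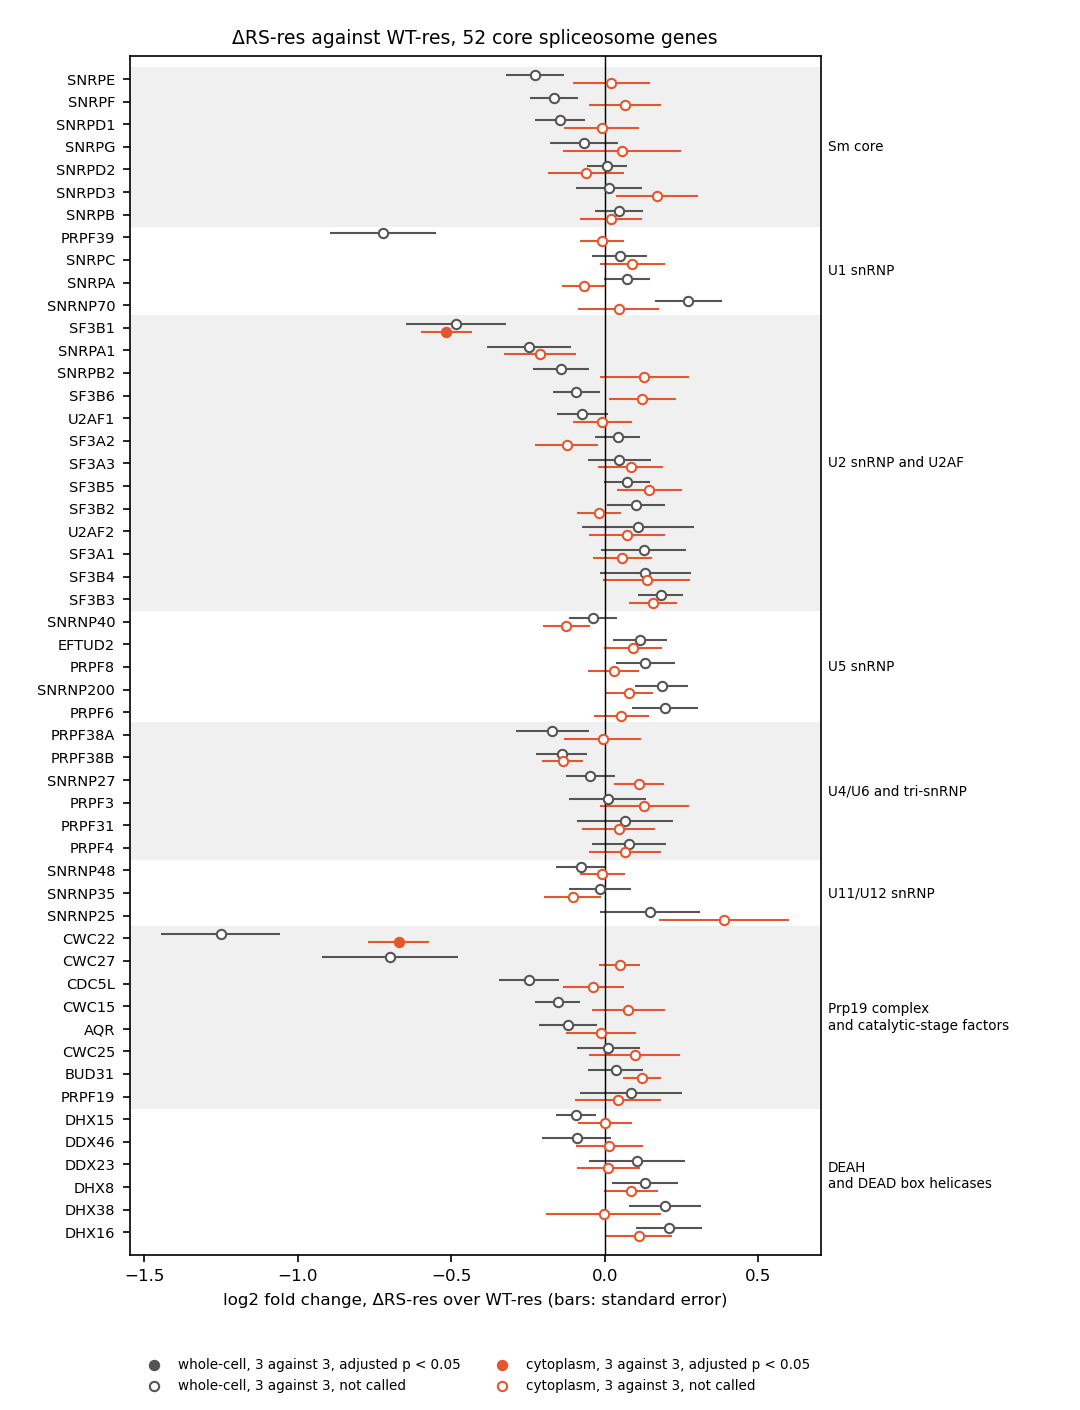
Log2 fold change of ΔRS-res over WT-res for each of 52 members, grouped by complex, in whole cells (grey) and cytoplasm (orange), 3 libraries against 3; bars are standard errors and filled symbols passed an adjusted p of 0.05. CWC22 and SF3B1 are the only filled symbols, both in the cytoplasm, and PRPF39 and CWC27 lie far below 0 in whole cells only.

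The same comparison in the cytoplasm gave 2 calls among the 52 members, both lower in ΔRS-res, where edgeR called 0.578% of 25949 genes higher and 0.948% lower. For SF3B1 the cytoplasmic values were 678.1, 759.8 and 701 CPM in WT-res and 514.8, 509.8 and 463.6 CPM in ΔRS-res. For CWC22 they were 81.14, 95.72 and 83.93 CPM against 57.38, 56.64 and 49.05 CPM. In both genes the lines did not overlap. SF3B1 fell by 0.52 ± 0.0832 (SE, log2, adjusted p = 0.0243) and CWC22 by 0.67 ± 0.0988 (SE, log2, adjusted p = 0.0171) by edgeR.

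PRPF39 and CWC27 were nearly level between the lines in the cytoplasm. PRPF39 had 34.88, 35.25 and 36.74 CPM in WT-res and 35.63, 36.15 and 33.9 CPM in ΔRS-res. CWC27 had 51.31, 50.44 and 53.06 CPM against 51.61, 52.47 and 55.31 CPM. The lines overlapped in both genes, with log2 fold changes of -0.01 ± 0.0731 and 0.05 ± 0.0671 (SE). The median over the 52 members was 0.05, beside 0.00 for all genes, and all ΔRS-res libraries lay above all WT-res libraries in 2 members, below in 4 and overlapping in 46, where 8.23% of all genes lay above and 8.87% below. The 2 calls depend on which library is left out: without ΔRS-res cytoplasmic replicate 3 both remained (SF3B1 with adjusted p = 0.0488 and CWC22 with 0.0309 by edgeR), without WT-res cytoplasmic replicate 1 or 3, or without ΔRS-res replicate 1 or 2, no member passed in edgeR's test (0.453% to 0.603% of all genes did), and without WT-res replicate 2 CWC22 alone did (1.15% of all genes), although SF3B1 stayed between -0.56 and -0.46 and CWC22 stayed negative.

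**Figure D2:**
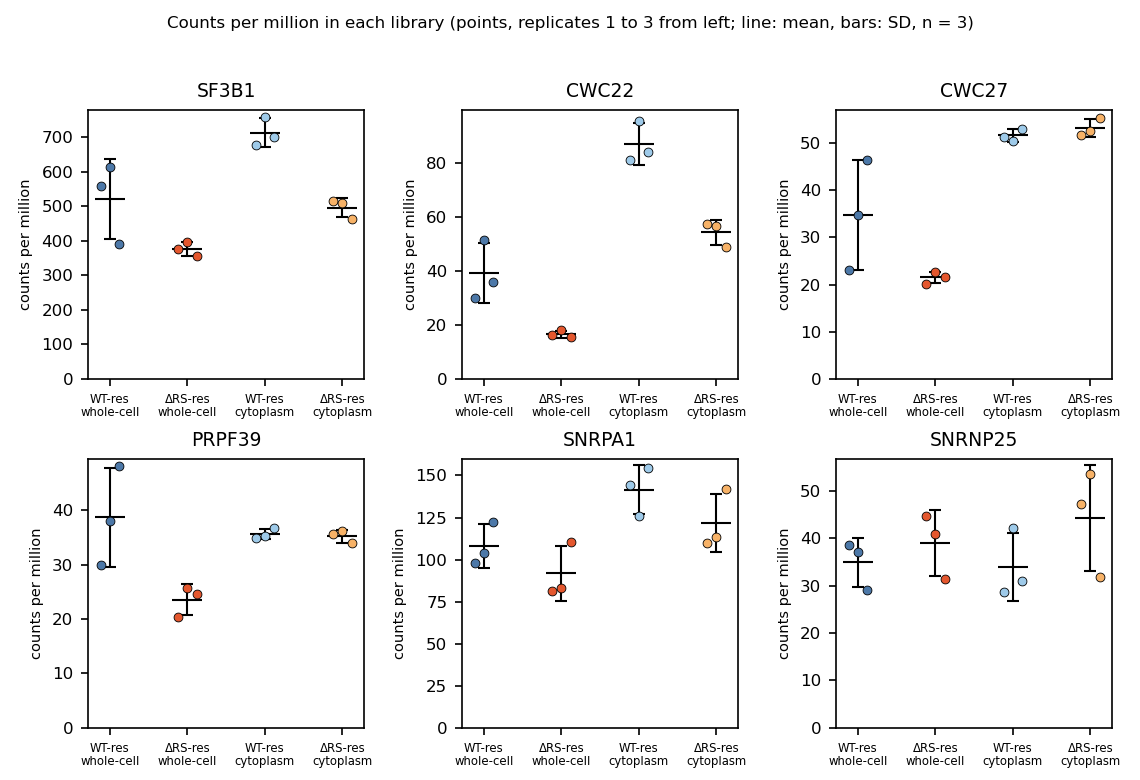
Counts-per-million (CPM, linear axis from 0) of 6 members in each of the 12 libraries, with replicates 1 to 3 from left to right in each group, the mean as a line and the SD (n = 3) as bars. SF3B1 and CWC22 are lower in ΔRS-res in both fractions, apart from the overlap of SF3B1 in whole cells, while the lines are apart in CWC27 and PRPF39 in whole cells and overlap in the cytoplasm.

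SF3B1 (chr2:197388515-197435079, minus strand, GRCh38) and CWC22 (chr2:179944876-180007297, minus strand, GRCh38) both lie in the distal long arm of chromosome 2. Their neighbours were read after the values of both genes were known. Of 49 protein-coding genes tested within 5 Mb of SF3B1, 49 had a negative log2 fold change in whole cells, with a median of -0.47, and 43 of 44 around CWC22 did, with a median of -0.43, beside 0.03 for all protein-coding genes. In the cytoplasm 47 of 49 and 40 of 44 were negative, with medians of -0.52 and -0.57 beside 0.02, and edgeR called 17 neighbours of each gene lower and 1 of CWC22 higher, where 0.948% of all genes were called lower and 0.578% higher. The values of both members thus lay among those of their neighbours (SF3B1) or beyond their median (CWC22), and the part of the region in the result was not tested.

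The study kept 4 of the 6 cytoplasmic libraries (numbers 1 and 3 of WT-res with numbers 1 and 2 of ΔRS-res). In these, edgeR called 21 members higher and 4 lower in ΔRS-res, where 10.7% of 25814 genes were called higher and 11.4% lower. The members' median log2 fold change was 0.19, beside 0.01 for all genes. Over 14562 genes, the kept WT-res libraries deviated against the kept ΔRS-res ones (r = -0.396, -0.647, -0.631 and -0.132). They deviated together with the ΔRS-res library left out (0.634 and 0.465). The WT-res library left out did so with the kept ΔRS-res ones (0.742 and 0.581). The part of this split in the calls was not tested. By complex, 7 of 13 U2 and U2AF genes, 4 of 6 U4/U6 and tri-snRNP genes, 3 of 8 Prp19 and catalytic genes, 2 of 5 U5 genes, 2 of 6 helicases, 1 of 4 U1 genes, 1 of 7 Sm genes and 1 of 3 U11/U12 genes rose.

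The member that rose most in the 4 libraries was SNRNP25, a U11/U12 protein gene, at 28.68 and 30.89 CPM in WT-res and 47.26 and 53.41 CPM in ΔRS-res (log2 0.78, adjusted p = 0.00199 by edgeR). The libraries left out had 42.03 CPM in WT-res replicate 2 and 31.73 CPM in ΔRS-res replicate 3, so over all 6 the lines overlapped, and the log2 fold change was 0.39 with adjusted p = 0.597. PRPF3, a U4/U6 protein gene, rose by 0.40 on the log2 scale, SF3B4 of the SF3B complex by 0.40, SNRPD3 of the Sm ring by 0.39 and CWC25 by 0.36, with adjusted p of 0.00261, 0.00394, 0.0198 and 0.00605 by edgeR. None of the 5 passed in 6 libraries.

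The 4 members that fell in the 4 libraries were CWC22 (-0.51), SF3B1 (-0.41), SNRPA1 (-0.40) and SF3A2 (-0.28), with adjusted p of 0.00151, 0.00268, 0.00415 and 0.00867 by edgeR. SNRPA1, which encodes the A′ protein of U2 snRNP, had 144.6 and 154.3 CPM in these WT-res libraries and 110.1 and 113.7 CPM in these ΔRS-res libraries. The libraries left out had 126 CPM in WT-res and 141.7 CPM in ΔRS-res, which closed the gap between the lines. SF3A2 had 215.8 and 212.3 against 177.7 and 171.3 CPM, and 194.2 and 219.1 CPM in the libraries left out, so that it too overlapped over all 6. Leaving out ΔRS-res replicate 1 or 2 from the 4 left 8 or 7 members called, and the calls over all genes fell alike, to 8.56% and 7.73%.

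The next comparison set the cytoplasm against whole cells within each line. Most members had higher CPM in the cytoplasm, in both lines. In WT-res, edgeR called 11 of the 52 higher and 1 lower, where 12% of 26585 genes were called higher and 22.4% lower. In ΔRS-res it called 27 higher and 1 lower, where 17% of 26589 genes were called higher and 24.1% lower. The members' median log2 difference was 0.27 in WT-res and 0.295 in ΔRS-res, beside -0.06 for all genes in both lines and 0.14 and 0.12 for protein-coding genes. The WT-res median was 0.17 without the library that goes against its label, beside -0.04 for all genes.

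With the replicate number as a block (the study's sample sheet gives the 2 fractions of a number 1 pellet identifier, while the labels give 1 well for whole cells and 6 for the cytoplasm), 21 members rose and 1 fell in WT-res, where 15.4% of all genes were called higher and 23.3% lower. The median of the members within same-numbered pairs of fractions was 0.10, 0.32 and 0.33 in WT-res and 0.26, 0.34 and 0.28 in ΔRS-res on the log2 scale, and between 45 and 49 of the 52 (86.5% to 94.2%) were higher in the cytoplasm in each, beside 45.6% to 49.9% of all genes and 56.8% to 60.4% of protein-coding genes. Without the library labelled as replicate 3 of WT-res whole cells, edgeR called 9 members higher and 1 lower in WT-res, and the calls fell to 7, 6 and 5 without whole-cell replicate 1, whole-cell replicate 2 and cytoplasmic replicate 3. Over all genes, 36.6% were called in either direction without the first of these libraries, and 24.1%, 23.8% and 19.3% without the others. In ΔRS-res the members called fell to 18 without cytoplasmic replicate 1 or 2, where 33.7% and 32.5% of all genes were called. Across all 3 libraries of each fraction, every cytoplasmic value was above every whole-cell value in 32 members in WT-res and 34 in ΔRS-res, and below in 2 in each line. Of all genes, 21.5% in WT-res and 22.7% in ΔRS-res lay above and 29% and 30% below, and of protein-coding genes 31.7% and 33.2% lay above and 22.1% and 23.8% below. Without the library that goes against its label the WT-res counts of members were again 32 above and 2 below, beside 30% and 33.6% of all genes.

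CWC22 rose most in the cytoplasm. Its CPM went from 30.05, 51.61 and 36.06 in whole cells to 81.14, 95.72 and 83.93 in the cytoplasm in WT-res, and from 16.31, 18.03 and 15.53 to 57.38, 56.64 and 49.05 in ΔRS-res. The fractions did not overlap in either line. The log2 difference was 1.14 ± 0.192 (SE) in WT-res and 1.71 ± 0.0955 (SE) in ΔRS-res, with adjusted p of 0.00323 and 6.11e-06 by edgeR, and 1.06 (adjusted p = 0.00863) in WT-res without the library that goes against its label.

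CWC27, which had 20.22, 22.59 and 21.72 CPM in whole cells and 51.61, 52.47 and 55.31 CPM in the cytoplasm of ΔRS-res, rose by 1.31 ± 0.0739 (SE, log2, adjusted p = 6.34e-06 by edgeR). In WT-res its whole-cell values were spread from 23.04 to 46.33 CPM below a cytoplasm at 50.44 to 53.06 CPM, and the difference of 0.57 ± 0.211 (SE) had adjusted p = 0.0685 by edgeR, and 0.0162 with the replicate number as a block. Without the library that goes against its label it was 0.80, with adjusted p = 0.00892 by edgeR, and was called. PRPF39 rose by 0.59 in ΔRS-res (adjusted p = 0.00195) and stood at -0.12 in WT-res (adjusted p = 0.577), by edgeR, and at 0.04 there without that library (adjusted p = 0.834). These are gene sums over transcripts that moved apart. In WT-res the coding PRPF39-201 had 744, 1400 and 1385 counts in whole cells and 1567, 2423 and 2723 in the cytoplasm. The retained-intron transcript PRPF39-203 had 1077, 1608 and 2250 against 208, 179 and 283 (not scaled to library size). SF3B1 rose by 0.40 in ΔRS-res (adjusted p = 0.00403). In WT-res it stood at 0.44 (adjusted p = 0.0754), passed with that block (0.47, adjusted p = 0.0257), and was at 0.25 without the library that goes against its label.

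Other members of the Prp19 group and the U2 snRNP rose too. CDC5L, a Prp19 complex subunit, had 170.4, 196.7 and 165.2 CPM in whole cells and 218.3, 262.2 and 235.1 CPM in the cytoplasm of WT-res, and 149.5, 162.6 and 139.9 CPM against 240.3, 244.9 and 209.1 CPM in ΔRS-res. The fractions were apart in both lines, with log2 differences of 0.42 and 0.62 and adjusted p of 0.0237 and 0.00105 by edgeR. In WT-res the CDC5L call was lost without whole-cell replicate 1 or 3 or without cytoplasmic replicate 2 or 3, where its log2 difference stayed between 0.35 and 0.43. There, SF3B2 (0.47), SF3A2 (0.43) and the U11/U12 gene SNRNP48 (0.41) followed, at 0.37, 0.40 and 0.45 without the library that goes against its label, and the SNRNP48 call was lost without WT-res cytoplasmic replicate 3 (0.36, adjusted p = 0.059 by edgeR). SNRPF of the Sm ring (0.56) followed in ΔRS-res. The 9 members called higher in both lines were CWC22, CDC5L, BUD31, SF3B2, SNRPA1, SNRPF, SNRNP40, SNRNP48 and the helicase gene DDX46, where 9.91% of the 25835 genes tested in both lines were called higher in both. Of the 9, CWC22 and SF3B2 alone passed in both lines whichever single library was left out. The share of all genes that did so is not given here, so this count is not compared with all genes.

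By complex, the Prp19 and catalytic group held the highest median, 0.40 in WT-res and 0.44 in ΔRS-res, with 3 and 6 of 8 called higher, where 12% and 17% of all genes were. The U2 and U2AF group had medians of 0.31 and 0.31 with 3 and 8 of 13 called higher, and the Sm ring 0.21 and 0.34 with 1 and 3 of 7. The U5 group had 0.23 and 0.15 with 1 of 5 called in each line, which was SNRNP40. No U4/U6 gene was called in WT-res and 3 of 6 were in ΔRS-res, and of the helicases 1 and 3 of 6 were. The WT-res medians without the library that goes against its label were 0.29 in the Prp19 and catalytic group, 0.19 in the U2 and U2AF group, 0.16 in the Sm ring and 0.14 in the U5 group. SNRNP35, a U11/U12 protein gene, stood at -0.15 and -0.25 and did not pass. In ΔRS-res it was called lower by edgeR with the replicate number as a block (-0.25, adjusted p = 0.00614) and with edgeR's own filter on low counts (-0.27, adjusted p = 0.0303).

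**Figure D3:**
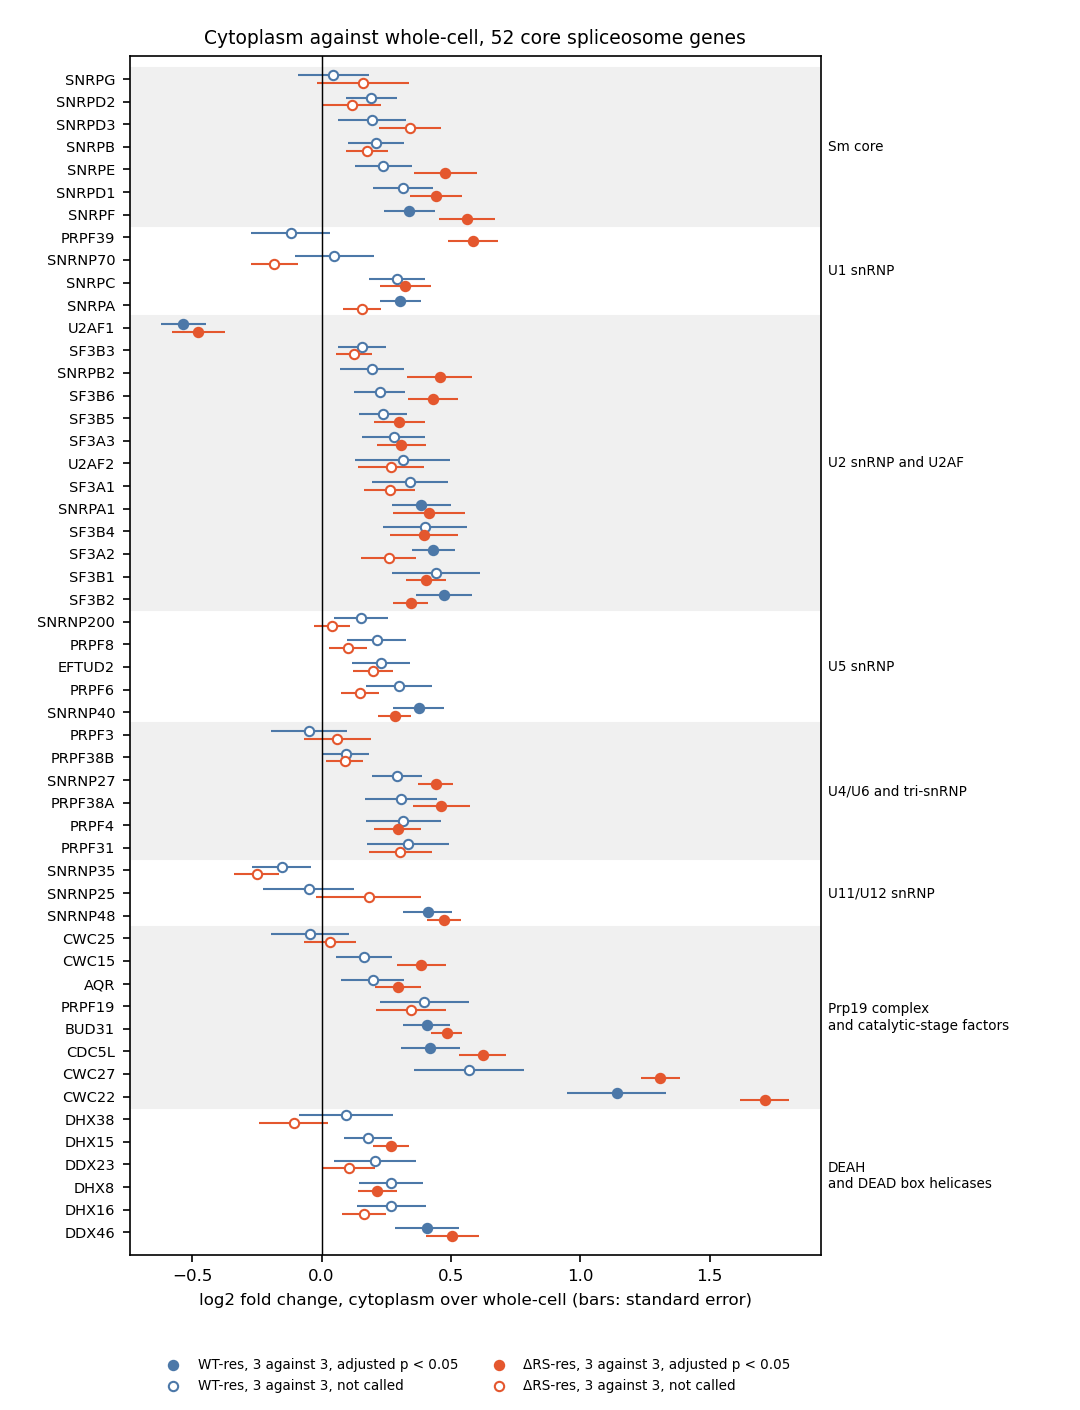
Log2 fold change of cytoplasm over whole-cell for each of 52 members, grouped by complex, in WT-res (blue) and ΔRS-res (orange), 3 libraries against 3; bars are standard errors and filled symbols passed an adjusted p of 0.05. Most members lie to the right of 0, CWC22 farthest, and U2AF1 is the only filled symbol to the left.

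U2AF1, which encodes the subunit of U2AF that reads the AG at the 3′ splice site, was the only member that edgeR called lower in the cytoplasm in either line with the filter and fit used here. It had 100.7, 94.9 and 101.8 CPM in whole cells and 64.83, 73.19 and 68.03 CPM in the cytoplasm of WT-res, and 104.2, 88.94 and 91.76 against 63.53, 63.87 and 76.66 CPM in ΔRS-res. The fractions did not overlap, and the log2 differences were -0.53 ± 0.0866 and -0.48 ± 0.104 (SE), with adjusted p of 0.00264 and 0.00799 by edgeR. The gene sum mixes transcript classes, with 18.5% of its counts in the retained-intron transcript U2AF1-208 and 41.6% in the coding U2AF1-202. In WT-res U2AF1-208 had 2382, 3119 and 2913 counts in whole cells and 697, 867 and 734 in the cytoplasm. U2AF1-202 had 2860, 3497 and 3214 against 3388, 4549 and 5398 (not scaled to library size). The sum thus does not give the direction of the coding transcript. These values are also uncertain, because GRCh38 carries a second copy of the gene (chr21:6484623-6499248, minus strand) that the annotation marks as an artifactual duplication. The copy took 50.3% to 74.0% of the counts of both in each library, and its transcript and the coding transcript U2AF1-201, both of 945 bases, differ at 1 base. When gene and copy were summed, the difference was -0.03 in WT-res and 0.06 in ΔRS-res, with adjusted p of 0.851 and 0.627 by edgeR, and the call was lost. In the 4 cytoplasmic libraries the summed gene was at 0.26 between the lines (adjusted p = 0.0111 by edgeR) where U2AF1 alone was at -0.04 (adjusted p = 0.591), so that 22 members in place of 21 were called higher there. SNRPB has a close relative, SNRPN, but no other member has an annotated duplicate.

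The difference between lines in the step from whole cells to cytoplasm was tested directly, as a fraction by line interaction over the 12 libraries. No member was called by edgeR, where it called 0% of 26686 genes higher and 0.00375% lower. DESeq2 called no member either, but its share over all genes is not given here, so its count is not compared with all genes. At an unadjusted p under 0.05, which 5.52% of all genes had, there were 3 members, CWC27 at 0.73, PRPF39 at 0.70 and CWC22 at 0.56 (adjusted p of 0.702, 0.702 and 0.817 by edgeR), each with the higher cytoplasm over whole-cell value in ΔRS-res. Without WT-res whole-cell replicate 1, edgeR called CWC27 (0.96, adjusted p = 0.00786) and PRPF39 (0.85, adjusted p = 0.0231), where 1.64% of all genes were called. Without the library that goes against its label CWC27 was at 0.47, PRPF39 at 0.51 and CWC22 at 0.62, each with adjusted p = 0.889 by edgeR. The PRPF39 values are of the gene sum, which mixes coding and retained-intron transcripts. SF3B1 stood at -0.05 ± 0.187 (SE), which gives no direction: it was at 0.12 without the library that goes against its label.

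Many members also have transcripts annotated as retaining an intron. Such transcripts often stay in the nucleus, and a ratio within a gene does not depend on library scaling. The share of retained-intron counts in the sum of retained-intron and protein-coding counts could be tested for 32 members, those with a mean of at least 10 counts in each class and most of their counts in annotated transcripts. The class is a label of the annotation, and reads over introns were not counted. Only in 13 members could the leading transcript of the class be matched to whole introns of the main coding transcript. A share therefore need not be of RNA that keeps a whole intron. In WT-res, limma called 28 of the 32 lower in the cytoplasm and none higher, where 2.78% of 6692 genes were called higher and 69.7% lower. In ΔRS-res it called 27 of 32 lower and none higher, where 4.21% of 6645 genes were called higher and 64.6% lower. The medians were -1.67 and -1.25 on the log2 scale beside -1.36 and -1.15 for all genes, so most members moved as most genes did. CWC25 met the minimum through its whole-cell libraries alone, so its fractions had to differ. Without it 27 of 31 members were called lower in WT-res and 26 of 31 in ΔRS-res, beside 69.9% and 64.4% of the genes that met the minimum in each fraction. With the library that goes against its label left out, limma called 26 of the 32 lower in WT-res, where 67.9% of all genes were called, and the median was -1.60 beside -1.33 for all genes.

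PRPF39 held both the largest change and the largest mean share in whole cells. Its retained-intron share was 64.7%, 59.8% and 66.1% in WT-res whole cells and 14.9%, 11.1% and 11.5% in the cytoplasm. In ΔRS-res it was 65.4%, 70.4% and 64.7% against 11.8%, 12.7% and 12.2%. The fractions were far apart in both lines, at -3.62 ± 0.207 and -3.86 ± 0.166 (SE) in log2 ratio, with adjusted p of 0.000245 and 0.000193 by limma. In WT-res it was -3.54 without the library that goes against its label.

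SNRPA1 went from 14.9%, 14.9% and 18.0% in whole cells to 2.83%, 2.96% and 2.09% in the cytoplasm of WT-res, and from 15.5%, 15.9% and 15.7% to 3.53%, 3.39% and 2.26% in ΔRS-res. The log2 ratio fell by 2.83 and 2.59, with adjusted p of 0.000245 and 0.000221 by limma. PRPF19, the ubiquitin ligase that names its complex, had low shares, 1.06%, 0.976% and 1.29% in whole cells and 0.168%, 0.17% and 0.187% in the cytoplasm of WT-res, a log2 difference of -2.65. In ΔRS-res its share went from 0.668%, 0.606% and 0.888% to 0.248%, 0.262% and 0.178%, a smaller log2 difference of -1.65. CWC25 went from 1.54%, 1.86% and 2.14% to 0.247%, 0.359% and 0.14% in ΔRS-res, but its cytoplasmic shares rest on 6, 11 and 4 retained-intron counts, so no test is read from it. In SNRPA1 and PRPF19 the fractions did not overlap.

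The introns held by the leading annotated retained-intron transcript of SF3B1 and of 5 members with high shares are shown by their splice sites. These are the sites that U1 snRNP and U2AF recognise. Other transcripts of the class add to the shares of these genes. SNRNP70, with a mean share of 14.5% in WT-res whole cells, is not shown. Each 5′ site has 6 exon and 9 intron bases with the first intron bases GT in capitals, and each 3′ site has 23 intron and 3 exon bases with the final AG in capitals, written 5′ to 3′ on the gene's strand from GRCh38. PRPF39 retains intron 3 of 13 (chr14:45096229-45096886, plus strand), SNRPA1 introns 5 and 6 of 8 (chr15:101286294-101286907 and chr15:101285802-101286213, minus), CWC15 intron 3 of 6 (chr11:94971066-94971374, minus), U2AF1 intron 2 of 7 (chr21:43101433-43104314, minus), DDX23 intron 6 of 16 (chr12:48837658-48837941, minus) and SF3B1 intron 4 of 24 (chr2:197418589-197420427, minus). All lie between coding exons.
PRPF39 intron 3, 5′ site: gatgagGTgcgtaca
PRPF39 intron 3, 3′ site: acagtttgctgttttcttcttAGgtt
SNRPA1 intron 5, 5′ site: ctaaaaGTaagtagt
SNRPA1 intron 5, 3′ site: ctctgtgtgtggtgtcgctgtAGgag
SNRPA1 intron 6, 5′ site: caaaacGTaagacac
SNRPA1 intron 6, 3′ site: gttatgttcttccccctcttaAGttt
CWC15 intron 3, 5′ site: cccgagGTaccaaca
CWC15 intron 3, 3′ site: aaatgatttttgtttccccccAGaac
U2AF1 intron 2, 5′ site: agccagGTttgtttg
U2AF1 intron 2, 3′ site: tttttatttttttttccccgcAGacc
DDX23 intron 6, 5′ site: tgttggGTttgttat
DDX23 intron 6, 3′ site: gctttgctttctttggtctgcAGaag
SF3B1 intron 4, 5′ site: cagatgGTaattctt
SF3B1 intron 4, 3′ site: cctgttgctgttcttttctgcAGgag

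The leading retained-intron transcript could be matched to whole introns in 13 members, 17 introns in all. Their median length was 519 bases (86 to 2896) and their median GC content 39.9%, beside 992 bases and 44.3% for the other 638 introns of the members. All 17 began with GT, as did 635 of the other 638. The 6 letters GTAAGT opened 3 of the 17 (17.6%) and 93 of the others (14.6%), and GTTTGT, which opens the introns of U2AF1 and DDX23 shown here, opened 2 of the 17 and 3 of the others, read on the gene's strand only. The letters GTTTGT were looked for after these sites were seen.

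CWC15, a catalytic-stage factor, kept a high share in the cytoplasm, 11.9%, 11.8% and 11.5% in WT-res after 20.7%, 19.7% and 24.8% in whole cells. DDX23, the helicase that removes U1 from the 5′ splice site, went from 11.1%, 10.2% and 13.3% to 2.28%, 2.22% and 1.95%. SF3B1 went from 3.74%, 3.95% and 5.7% to 2.28%, 1.62% and 1.56% in WT-res (log2 -1.33, adjusted p = 0.00332 by limma) and from 3.03%, 2.77% and 3.41% to 1.92%, 1.27% and 1.52% in ΔRS-res (log2 -1.01, adjusted p = 0.00498 by limma). The 3 genes differed in level but in each every cytoplasmic value was below every whole-cell value. U2AF1 had the other large share, and with the copy's counts added it was 27.0% ± 1.73 and 24.1% ± 1.56 in WT-res and ΔRS-res whole cells and 7.66% ± 1.31 and 7.29% ± 0.321 in the cytoplasm (SD, n = 3). CWC22 has no retained-intron transcript in the annotation.

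The members not called in either line were SNRNP200, the U5 helicase that unwinds U4/U6, SF3B3 and SF3B6 of the SF3B complex, and SNRPD3 of the Sm ring. SNRNP200 had 11.4%, 11.2% and 12.2% in whole cells and 10.7%, 9.75% and 10.3% in the cytoplasm of WT-res, and SF3B3 had 11%, 10.7% and 10.7% against 10.1%, 9.43% and 9.8%. Their log2 differences were -0.20 and -0.17, small beside that of most members. AQR, an intron-binding helicase, was called in WT-res (-1.25) and not in ΔRS-res (-0.57, adjusted p = 0.0719 by limma).

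Between the lines, the retained-intron share was called in no member. In whole cells limma called none of 32 (8 at an unadjusted p under 0.05, all lower in ΔRS-res, beside 12.7% of all genes), where it called 0% of 6893 genes higher and 0% lower. A transcript-class test in edgeR (diffSpliceDGE) called none of the 32 either, but its share over all genes is not given here. The median was -0.24, beside -0.17 for all genes, and -0.24 beside -0.15 without the library that goes against its label. In the cytoplasm limma called none of 31 and none had an unadjusted p under 0.05 (3.57% of all genes had one), where it called 0% of 6167 genes higher and 0.0162% lower. There too diffSpliceDGE called none, without its share over all genes. PRPF39, for example, stood at 0.21 in whole cells and -0.02 in the cytoplasm.

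Transcripts annotated as targets of nonsense-mediated decay (NMD), which destroys mRNAs with an early stop codon in the cytoplasm, could be tested against protein-coding ones in 19 members. In WT-res limma called 2 lower in the cytoplasm and none higher, where 2.87% of 4636 genes were called higher and 5.74% lower. They were SNRNP70, whose NMD share was 11.3%, 9.94% and 12.3% in whole cells and 5.92%, 5.85% and 4.42% in the cytoplasm, and SF3B1, at 2.44%, 2.31% and 2.46% against 1.34%, 1.38% and 1.47%. The fractions were apart in both, at -1.15 (adjusted p = 0.0322) and -0.80 (adjusted p = 0.0355) by limma. In ΔRS-res it called SNRNP70 alone (-0.91, adjusted p = 0.0338 by limma), from 10.6%, 11.8% and 10.9% to 6.3%, 6.79% and 5.64%, where 2.61% of 4639 genes were called higher and 5.22% lower. The medians were -0.15 and -0.24 beside -0.01 and -0.04 for all genes. With the replicate number as a block, or with any 1 library left out, limma called no member, where it called 0% of all genes with the block in both lines and 0.0652% to 3.66% in WT-res and 2.13% to 3.82% in ΔRS-res with 1 library left out.

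A further 73 spliceosome genes outside the 52 were read in the same fits. Between the lines edgeR called none in whole cells (9 at an unadjusted p under 0.05, beside 12.5% of all genes) and none in the 6 cytoplasmic libraries (2 at an unadjusted p under 0.05, beside 10.8%), with medians of -0.04 and -0.01. In the 4 cytoplasmic libraries 15 rose and 1 fell, beside 21 and 4 of the 52 members and 10.7% and 11.4% of all genes: TFIP11, which helps take the spliceosome apart, rose by 0.44 and PPIL2, a cyclophilin-type protein, by 0.40, while GPKOW, which works with a spliceosomal helicase, fell by 0.19. In the cytoplasm against whole cells, 32 of the 73 rose and 2 fell in WT-res, beside 11 and 1 of the 52 members and 12% and 22.4% of all genes. In ΔRS-res 45 of the 73 rose and 2 fell, beside 27 and 1 of the 52 members and 17% and 24.1% of all genes. The medians of the 73 were 0.29 and 0.31. With the library that goes against its label left out, 27 rose and 2 fell in WT-res with a median of 0.25, where 13.9% of all genes were called higher and 22.7% lower, and none was called between the lines in whole cells, with a median of -0.09. None of the 73 was called in the interaction.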

How the data were processed

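RNA from 12 libraries was depleted of ribosomal RNA and sequenced as 100-base pairs on a NovaSeq. The authors used Trim Galore for trimming and STAR for alignment (GRCh38), and deposited RSEM expected counts per transcript of Ensembl release 107 (tool versions are not given in the sources used here); between 43.3% and 47% of all values of a library, zeros included, had any fractional part. The deposited expected counts were summed per gene and rounded. Genes with a mean count above 2 were tested with edgeR 4.0.16 (TMM, quasi-likelihood test, R 4.3.3), with Benjamini-Hochberg adjustment over all genes and a threshold of 0.05. SE is the log2 fold change divided by the root of F. Transcript classes came from GENCODE 44 (99.72% of transcripts matched). Class ratios were tested with limma 3.58.1 on log2 ratios (pseudocount 0.5, mean of at least 10 in each class, at least 0.8 of a gene's counts in matched transcripts, a limit set after seeing SNRNP25). DESeq2 1.42.0 was an alternative. Retained introns were read from GRCh38. Scripts were tested on simulated counts.

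Named were SF3B1 and CWC22 in each comparison, the 5 called members with the largest and the 5 with the smallest log2 fold change, the 3 largest ratio changes, the 3 highest and lowest levels per length, the 2 most changed other spliceosome genes in each direction in line comparisons and members with near-identical loci; others were chosen after their values were seen. Members and lists were chosen with earlier results of these data known. The study's sample sheet gives the whole-cell and cytoplasmic library of a number 1 cell pellet identifier. Same-numbered whole-cell libraries of the lines deviated together (r = 0.478, 0.466 and 0.634 over 15175 genes, against -0.593 to 0.432 for unlike numbers); in the cytoplasm pairs 2 and 3 did (0.581 and 0.465) and pair 1 did not (-0.396), with -0.805 to 0.742 for unlike numbers, so the number was not taken as pairing the lines there. Within a line, the fractions of a number gave r = -0.167, 0.528 and 0.42 in WT-res and 0.435, 0.397 and 0.769 in ΔRS-res, against -0.574 to 0.436 and -0.649 to 0.549 for unlike numbers, so in both lines some unlike pairs correlated better than some like ones.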

Additional observations from a re-analysis of the deposited data

How the results depend on the processing

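Member counts called in whole cells between the lines were 0 as reported, 2 by DESeq2's Wald test (3.97% of all genes), 1 with no filter on low counts (CWC22; 0.0456%), 3 at the study's threshold (unadjusted p under 0.05 and log2 fold change over 0.5; 6.34%), 5 with the replicate block (7.97%), and 0 to 3 with single libraries left out (0% to 2.24%). The study used its threshold on DESeq2 results per transcript, and here it was applied to edgeR results per gene. Cytoplasmic calls in 6 libraries went from 2 (1.53%) to a range of 0 to 2 (0.453% to 1.41%), with single libraries left out. In 4 libraries, 25 calls became 2 at the study's threshold (13.1% of all genes) and 7 to 33 with single libraries left out (7.73% to 24.5%, beside 22.1% as reported), where the lone library of an arm was assumed to vary like the others; no block could be fitted there, since the lines share 1 number. In WT-res, the 12 calls of cytoplasm against whole-cell became 20 by DESeq2 (38.9%), 3 at the study's threshold (31.2%), 22 with the replicate block (38.7%) and 5 to 10 with single libraries left out (19.3% to 36.6%). In ΔRS-res, 28 became 6 at the study's threshold (33.8%) and 18 to 32 with single libraries left out (32% to 42.7%); the block gave 40 (56.5%). Interaction calls went from 0 to 3 at the study's threshold (3.88%) and 0 to 2 with single libraries left out (0.00374% to 1.64%), and the SF3B1 interaction of -0.05 ran from -0.183 to 0.117 with single libraries left out, turning positive without WT-res whole-cell replicate 3 (0.117) and without WT-res cytoplasmic replicate 2 (0.005). NMD calls in WT-res, 2, became 0 with the replicate block (0% of all genes), 1 with diffSpliceDGE (11.7%) and 0 with single libraries left out. In ΔRS-res the 1 NMD call became 2 with a pseudocount of 5 (9.98%), 3 with a mean of at least 50 counts in each class (13.4%), 0 with the block (0%), 2 with diffSpliceDGE (13.3%) and 0 with single libraries left out. The cause of these changes was not tested. Retained-intron calls stayed at 25 to 28 in WT-res and 23 to 27 in ΔRS-res under every alternative, and at 0 between the lines. The fits as reported called 69.7% and 64.6% of all genes lower in the cytoplasm. Between the lines they called 0% lower in whole cells and 0.0162% in the cytoplasm. Shares over all genes under each alternative are not given here, so nothing particular to the members is read from these counts. The block changed no other count of members called by over 1.5 times. Summing U2AF1 with its copy was added after the data were seen. Libraries held 90333190 counts or more, and the effect of depth was not tested.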
